A study of Mus musculus with 2 samples.

Results

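The 10 genes described here encode enzymes and transporters of the enterocyte brush border and its sugar supply. They were chosen by name, for their function, out of 22367 protein-coding genes of the mouse annotation. They are the disaccharidase genes Sis, Lct and Treh, the sugar transporter genes Slc5a1, Slc2a2 and Slc2a5, and the peptidase genes Anpep, Dpp4, Enpep and Mep1a. For each gene, a start site peak was a peak of open chromatin within 1 kb of any annotated transcription start site of that gene. A distal peak lay in the gene body or up to 50 kb on either side and more than 1 kb from every annotated start site. Its position is that of its middle in kb from the main start of the gene, negative upstream. The control list held 92 start site and distal peaks of these genes out of 90445 peaks in all, and the list made after Taf4 inactivation held 90 out of 71282.

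Open chromatin was profiled by ATAC-seq, an assay in which a transposase cuts accessible DNA and tags it for sequencing. The material was organoids, also called enteroids, grown from ileal crypts of mice of the mixed strain C57Bl6/129sv, aged 4 months. Both cultures received 1 µM 4-hydroxytamoxifen (4-OHT) for 3 days. Control enteroids carry the genotype label WT, and the study's methods describe them as Taf4lox/lox enteroids without a Cre. Inactivated enteroids carry the label KO and, by the methods, held the same floxed alleles with VilCreERT2, a 4-OHT-dependent Cre driven by the villin promoter and so restricted to the gut epithelium. Taf4 encodes one of the subunits of TFIID, which assembles at promoters, and the question was how accessibility at these genes differed after its loss. Each genotype was represented by 1 library, so no difference below has a replicate check and no p-value between genotypes was computed.

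Dietary carbohydrate and protein are broken down last at the brush border, the microvillus surface of absorptive enterocytes. Disaccharidases anchored in that membrane release single sugars, which sodium-coupled and facilitative carriers move into the cell and on to the blood. Ectopeptidases in the same membrane trim peptides to amino acids and very short peptides. Many of these genes carry binding sites for the intestinal factors HNF1, HNF4, CDX2 and GATA4 near their start sites.

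The peak lists differed in depth. Background levels solved from fold and p gave the inactivated library 60.6% of the control depth, and the lists covered 66.0 Mb in control and 47.7 Mb after inactivation. Folds were therefore ranked within each list. The median fold was 2.03 in control and 2.45 after inactivation, and the highest 10% began at 2.57 and 3.69. Folds given below are thus not on a common scale between the lists. A percentile of 90 or more is called strong here, and a rank difference is the percentile after inactivation minus that in control. The start site peak of the targeted gene, annotated as Taf4a, stood at percentile 74.7 in control and 58.7 after inactivation, which does not show whether the floxed exons were lost. Of 8 markers of intestinal epithelium, 7 had a start site peak in control and 8 after inactivation. Of 18 markers of immune, stromal, endothelial, neural, liver and pancreas cells, 10 and 9 had one. Over all coding genes 68.4% had one in control and 65.6% after inactivation. In neither list was one called for 7 of the 18 (Ptprc, Cd3e, Cd79a, Acta2, Cdh5, Alb and Cpa1), nor for 28.7% of coding genes. Of the 8 of these markers with a peak in both lists, 6 ranked lower after inactivation. Among them were Kdr (percentile 93.1 to 35.9), Des (81.9 to 53.2), Pdgfra (74.3 to 33.3) and Col1a2 (52.7 to 30.03). Pecam1 had a peak in control only. Most coding genes with a peak in both lists also ranked lower, since 34.2% ranked higher. The part of other cell types in the differences below was not tested. A peak can stand in a list because few cells are widely open or many are slightly open, and these cannot be told apart in bulk libraries. Shares carry exact (Clopper-Pearson) 95% intervals, which cover counting error only.

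Sequences upstream of 4 start sites are shown because 2 of these genes, Sis and Lct, had no start site peak in either list, Treh had one in both, and Mep1a in the inactivated list only. Each holds the 250 bases before the main start, read from NCBIM37 (mm9) 5′ to 3′ along the strand of the gene. Capitals mark exact matches, on either strand, to the core letters of 5 motifs. The liver-enriched receptor HNF4 was searched as CAAAGTCCA. The homeodomain factor HNF1 was searched by one arm of its palindrome, GTTAAT. The intestinal homeodomain factors of the CDX family were searched as TTTATG. The zinc finger factors of the GATA family were searched as AGATAA, and the dimer AP-1 was searched as TGANTCA with any base for N. No matches overlapped in the windows shown.
Sis, chr3:72771786-72772035, minus strand: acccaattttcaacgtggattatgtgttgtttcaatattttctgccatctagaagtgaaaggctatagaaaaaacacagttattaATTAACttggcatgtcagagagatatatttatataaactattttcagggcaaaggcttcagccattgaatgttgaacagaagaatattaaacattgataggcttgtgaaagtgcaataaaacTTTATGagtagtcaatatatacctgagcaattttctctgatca
Lct, chr1:130224896-130225145, minus strand: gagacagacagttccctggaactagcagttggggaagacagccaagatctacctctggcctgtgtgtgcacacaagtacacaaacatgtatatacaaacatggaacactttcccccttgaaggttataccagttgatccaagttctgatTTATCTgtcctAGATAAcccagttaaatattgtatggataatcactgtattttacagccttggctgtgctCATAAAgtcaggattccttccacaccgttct
Treh, chr9:44481066-44481315, plus strand: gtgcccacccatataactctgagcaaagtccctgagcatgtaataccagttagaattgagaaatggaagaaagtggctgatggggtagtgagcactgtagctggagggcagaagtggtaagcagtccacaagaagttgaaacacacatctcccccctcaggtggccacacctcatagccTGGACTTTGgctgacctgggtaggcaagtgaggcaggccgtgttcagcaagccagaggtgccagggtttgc
Mep1a, chr17:43639723-43639972, minus strand: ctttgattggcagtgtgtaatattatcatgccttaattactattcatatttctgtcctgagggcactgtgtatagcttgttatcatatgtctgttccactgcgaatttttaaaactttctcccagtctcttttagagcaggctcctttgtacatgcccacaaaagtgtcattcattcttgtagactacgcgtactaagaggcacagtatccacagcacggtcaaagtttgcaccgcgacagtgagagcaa

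The Sis window held 1 HNF1 match beginning at base -165 from the start and 1 CDX match beginning at base -43. The Lct window held 1 CDX match at base -31 and 2 GATA matches at bases -101 and -90. The Treh window held 1 HNF4 match at base -71, and the Mep1a window held none of the 5 motifs. Over the 10 genes, HNF4 was matched in 1 window, HNF1 in 1, CDX in 2, GATA in 2 (Lct and Dpp4) and AP-1 in 0. Over all 22367 coding genes, windows of the same length held these motifs in 0.407%, 5.49%, 9.86%, 9.15% and 5.87% of cases. The Sis and Lct windows thus carried letters of intestinal factor motifs while no peak was called within 1 kb of their starts. A match describes letters only and is not evidence of binding.

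Distal sequences are shown for 5 peaks on which the results below turn. They are the highest ranked distal peak at Slc2a2, the Lct intron 1 peak and a pair of peaks upstream of Slc5a1. The last is the Anpep peak with the largest gain in rank, which lay inside the neighbouring gene Ap3s2. Each is the central 300 bases of the peak in the inactivated list, on NCBIM37 and along the strand of the gene.
Slc2a2 intron 2, chr3:28604670-28604969, plus strand: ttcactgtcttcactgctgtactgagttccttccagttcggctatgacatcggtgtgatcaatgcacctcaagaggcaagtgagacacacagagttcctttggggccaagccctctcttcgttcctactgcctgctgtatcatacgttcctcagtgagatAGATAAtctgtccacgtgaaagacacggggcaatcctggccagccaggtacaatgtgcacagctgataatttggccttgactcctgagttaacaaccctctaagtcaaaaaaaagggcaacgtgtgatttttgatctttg
Lct intron 1, chr1:130219916-130220215, minus strand: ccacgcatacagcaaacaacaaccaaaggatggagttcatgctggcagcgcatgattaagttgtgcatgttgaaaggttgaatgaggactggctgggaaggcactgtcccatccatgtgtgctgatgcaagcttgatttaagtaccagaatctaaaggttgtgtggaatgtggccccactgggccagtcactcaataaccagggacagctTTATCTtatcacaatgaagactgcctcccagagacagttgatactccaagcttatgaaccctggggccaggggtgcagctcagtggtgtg
Slc5a1 upstream near, chr5:33434024-33434323, plus strand: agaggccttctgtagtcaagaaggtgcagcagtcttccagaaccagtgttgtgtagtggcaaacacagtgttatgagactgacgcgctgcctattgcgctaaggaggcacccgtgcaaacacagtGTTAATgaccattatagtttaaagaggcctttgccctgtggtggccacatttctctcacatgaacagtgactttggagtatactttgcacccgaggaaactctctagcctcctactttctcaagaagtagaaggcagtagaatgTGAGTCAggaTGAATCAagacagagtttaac
Slc5a1 upstream far, chr5:33427091-33427390, plus strand: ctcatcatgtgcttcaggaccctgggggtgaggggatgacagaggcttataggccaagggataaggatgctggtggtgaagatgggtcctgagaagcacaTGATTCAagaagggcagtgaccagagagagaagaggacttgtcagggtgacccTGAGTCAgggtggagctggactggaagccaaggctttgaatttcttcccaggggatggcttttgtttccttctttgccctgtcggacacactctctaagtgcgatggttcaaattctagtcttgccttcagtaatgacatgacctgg
Anpep upstream, chr7:87023501-87023800, minus strand: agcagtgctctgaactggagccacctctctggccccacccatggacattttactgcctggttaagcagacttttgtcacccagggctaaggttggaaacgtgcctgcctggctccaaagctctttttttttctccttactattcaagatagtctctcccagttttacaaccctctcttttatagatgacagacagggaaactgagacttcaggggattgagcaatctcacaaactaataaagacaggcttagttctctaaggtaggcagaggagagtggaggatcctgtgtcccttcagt

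The Slc2a2 and Lct windows held 1 GATA match each, the nearer Slc5a1 window held 1 HNF1 and 2 AP-1 matches, the farther one held 2 AP-1 matches, and the Anpep window held none. Across 21 windows at the 10 genes, chosen as the top distal peak of each gene and list and the pairs with the largest rank differences, GATA was matched in 6, AP-1 in 5, HNF1 in 1, CDX in 1 and HNF4 in 0. In the central 300 bases of all 53780 distal peaks of the inactivated list, the shares were 15.0% for GATA, 14.2% for AP-1, 7.46% for HNF1, 13.2% for CDX and 1.72% for HNF4. In the 70789 distal peaks of the control list they were 11.5%, 10.4%, 5.62%, 10.9% and 0.839%. The 21 windows were picked by fold or rank difference in these same lists, so they are not like all distal peaks. No enrichment was tested. The 5 AP-1 windows lay at Anpep, Dpp4 and Slc5a1 only, and those at Slc5a1 neighbour each other.

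A start site peak was called for 7 of the 10 genes in control and for 8 after Taf4 inactivation. The same 7 genes had one in both lists. Over all coding genes, 68.4% had a start site peak in control, 65.6% after inactivation and 62.7% in both, so the counts for the 10 genes were close to the background. Mep1a alone had one in the inactivated list only, a class that held 2.9% of coding genes. With start sites taken within 2 kb, 9 of the genes had one in control, 8 after inactivation and 8 in both. None was then called after inactivation only, and the shares over all coding genes within 2 kb were not computed. Within 1 kb, no start site peak was called for Sis and Lct, and 28.7% of coding genes likewise had none in either list. The 7 genes with a peak in both lists had a median rank difference of 0.729 points, from -7.96 to 39.5, and 4 were higher after inactivation. This direction was not stable, since the median was -2.45 with start sites taken within 2 kb and -9.42 when peaks were ranked by width. Of the 4 higher genes, Anpep (0.729) turned negative under 3 alternatives, and the peaks compared at Slc2a5 did not overlap. Over the 14014 coding genes with peaks in both lists the median was -2.77 points (quartiles -10.6 and 2.36), and 34.2% were higher.

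**Figure D1:**
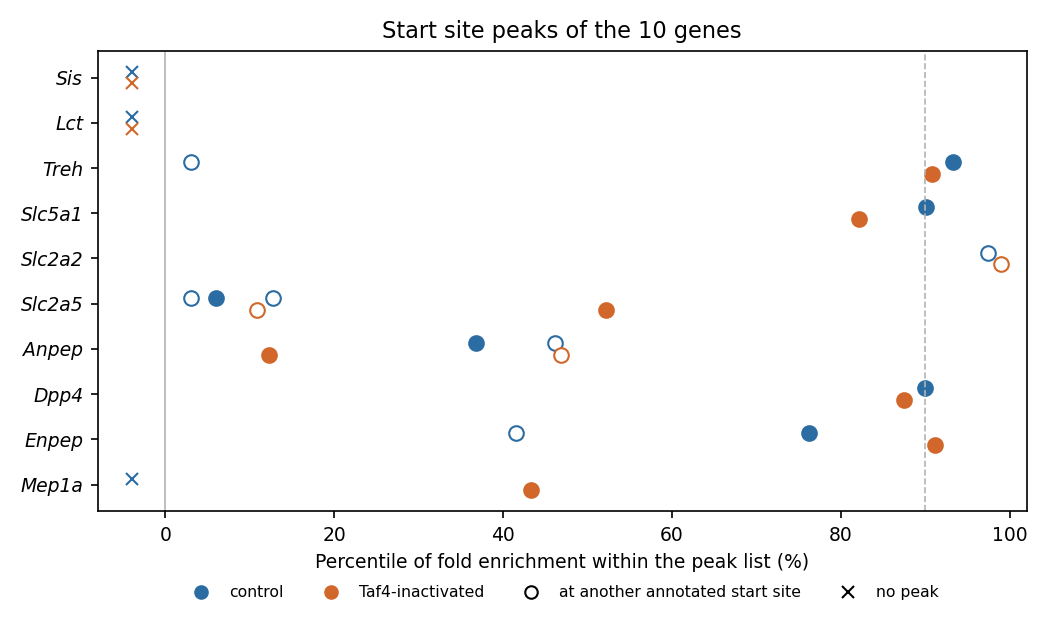
Start site peaks of the 10 genes, with the percentile of fold enrichment within each peak list on the horizontal axis. Blue marks control and orange Taf4-inactivated enteroids, filled circles lie within 1 kb of the main start site, open circles at another annotated start site, crosses mark genes without a peak, and the dashed line is the percentile of 90 above which peaks are called strong. The highest peaks of Treh, Slc5a1, Dpp4 and Slc2a2 lie above percentile 82 in both lists, and those of Slc2a5 and Anpep lie lower. Treh also has an open circle at percentile 3.09 in control. The highest Enpep peak stands at 76.3 in control and 91.2 after inactivation. Mep1a has a peak after inactivation only, and Sis and Lct have none.

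Sis encodes sucrase-isomaltase, which splits sucrose and the ends of starch fragments. The gene (ENSMUSG00000027790.8, chr3:72692479-72771785, minus strand) spans 79.3 kb. In control enteroids the whole window held 1 distal peak, at -35.7 kb (chr3:72807338-72807620), with a fold of 2.46 at percentile 86.9. After inactivation the same place had a fold of 4.03 at percentile 93.8. The intergenic peak was therefore high in both lists, and it was the only one called in control. The inactivated list held 4 further peaks without a control partner. The highest of them lay at -8.96 kb (chr3:72780588-72780910) at percentile 88.4, and the others, at -23.2, -29.8 and 82.2 kb, stood at percentiles 64.0, 77.0 and 41.0. These 4 were singled out after their values were seen. With 0.558 distal peaks per 100 kb, Sis stood at percentile 14.6 of coding genes in control, and with 2.79 at percentile 47.7 after inactivation.

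Lct encodes lactase, the enzyme that splits milk sugar. The gene (ENSMUSG00000026354.8, chr1:130181333-130224895, minus strand) held 5 distal peaks in control and 3 after inactivation, all inside the gene. The highest in both lists lay in intron 1, about 5 kb into the gene. In control it spanned chr1:130219926-130220648 with a fold of 2.04 at percentile 52.0, and after inactivation it spanned chr1:130219750-130220380 with a fold of 4.06 at percentile 94.2. The rank difference was 42.1 points, the fifth largest gain of the 44 shared distal peaks of the 10 genes. An intron 2 peak went from percentile 33.9 to 65.5, although the peaks of the lists shared only 117 bp. The 3 control peaks without a partner were weak and lay in the later part of the gene, at percentiles 30.9, 15.8 and 10.4. Start sites of the neighbours Mcm6 and Ubxn4, inside the Lct window, had strong peaks in both lists.

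Treh encodes trehalase, which splits trehalose, a sugar of fungi and insects. The gene (ENSMUSG00000032098.7, chr9:44481316-44494388, plus strand) had the highest ranked peak over a main start site among the 10 genes in control, at chr9:44481112-44481987 with a fold of 2.75 and percentile 93.3. After inactivation the peak at chr9:44481079-44481665 had a fold of 3.75 at percentile 90.9. They shared 554 bp, and the rank difference was -2.43 points. The start of Treh was thus strong in both lists. A weak control peak in intron 4, at percentile 3.09, lay 780 bp from another annotated start of Treh and had no partner after inactivation. The highest distal peak differed between the lists. In control it lay at -14.4 kb (percentile 87.2, against 78.2 after inactivation), and after inactivation it lay in intron 1 at 6.44 kb (chr9:44487565-44487948, percentile 82.2), where control had no peak. A peak at -17.8 kb showed the second largest gain of the shared distal peaks, from percentile 4.33 to 64.0.

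Slc5a1 encodes SGLT1, the sodium-coupled carrier that takes up glucose and galactose from the lumen. The gene (ENSMUSG00000011034.3, chr5:33446868-33505521, plus strand) had a broad peak over its main start in both lists, 1375 bp wide in control (chr5:33446499-33447873, fold 2.58, percentile 90.1) and 1336 bp after inactivation (chr5:33446566-33447901, fold 3.24, percentile 82.2). Of the 7 genes it had the lowest rank difference, -7.96 points, between the quartiles of all coding genes. Upstream of the gene the order was the other way. The peak at -12.7 kb went from percentile 63.9 (fold 2.12) to 95.9 (fold 4.27), and the peak at -19.7 kb from 39.0 (fold 1.98) to 91.2 (fold 3.78). Their sequences are those with AP-1 matches above. Not all upstream peaks went this way. The control peak at -21.4 kb, the highest distal one of Slc5a1 in that list at percentile 78.8, had no partner after inactivation, and its central window held an AP-1 match too. The gene held 11 distal peaks in each list, of which 7 in each had no partner.

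Slc2a2 encodes GLUT2, the carrier through which glucose, galactose and fructose leave the enterocyte. The gene (ENSMUSG00000027690.7, chr3:28596825-28627278, plus strand) held the highest ranked peak of the 10 genes in both lists. It lay in intron 2 at 7.94 kb (chr3:28604524-28604999 in control), with folds of 3.73 in control and 5.37 after inactivation and percentile 99.5 in both lists. A second lay in intron 8 (chr3:28620650-28621137 in control), at percentile 97.4 with a fold of 3.17 and, after inactivation, 99.0 with a fold of 5.003. The intron 8 peak counted as a start site peak only because a transcript with a retained intron is annotated to begin 211 bp from its control edge, 23825 bp from the main start. No peak reached within 1 kb of the main start. The nearest lay 1284 bp before it in control, at percentile 48.1, and 1227 bp before it after inactivation, at percentile 80.9. The accessibility called at Slc2a2 was thus highest inside the gene in both libraries.

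Slc2a5 encodes GLUT5, the fructose carrier of the apical membrane. The gene (ENSMUSG00000028976.4, chr4:149493392-149518278, plus strand) had weak start site peaks. In control the peak nearest the main start began 952 bp past it (chr4:149494344-149494765, fold 1.78, percentile 6.03), and after inactivation it began at 653 bp (chr4:149494045-149495137, fold 2.48, percentile 52.2). The overlapping gene Gm13093 is annotated to start there as well. The highest control start site peak, at percentile 12.7, lay elsewhere, 970 bp from the start of a retained intron transcript, and the inactivated peak overlapping it stood at percentile 10.8. The rank difference of 39.5 points therefore compared peaks at different starts. Taking the peak nearest to any start in place of the highest gave 7.76 points, again between peaks that did not overlap. Distal peaks in the Slc2a5 window were many, 13 in control and 12 after inactivation, at percentiles 95.6 and 98.1 of coding genes by density. In both lists some of them lay inside the neighbouring genes Gpr157, Slc2a7 and Car6. In intron 6 a peak at 13.7 kb stood at percentile 89.5 in control and 90.9 after inactivation. The peak at -4.43 kb was the highest after inactivation, at percentile 93.9 against 73.7 in control.

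**Figure D2:**
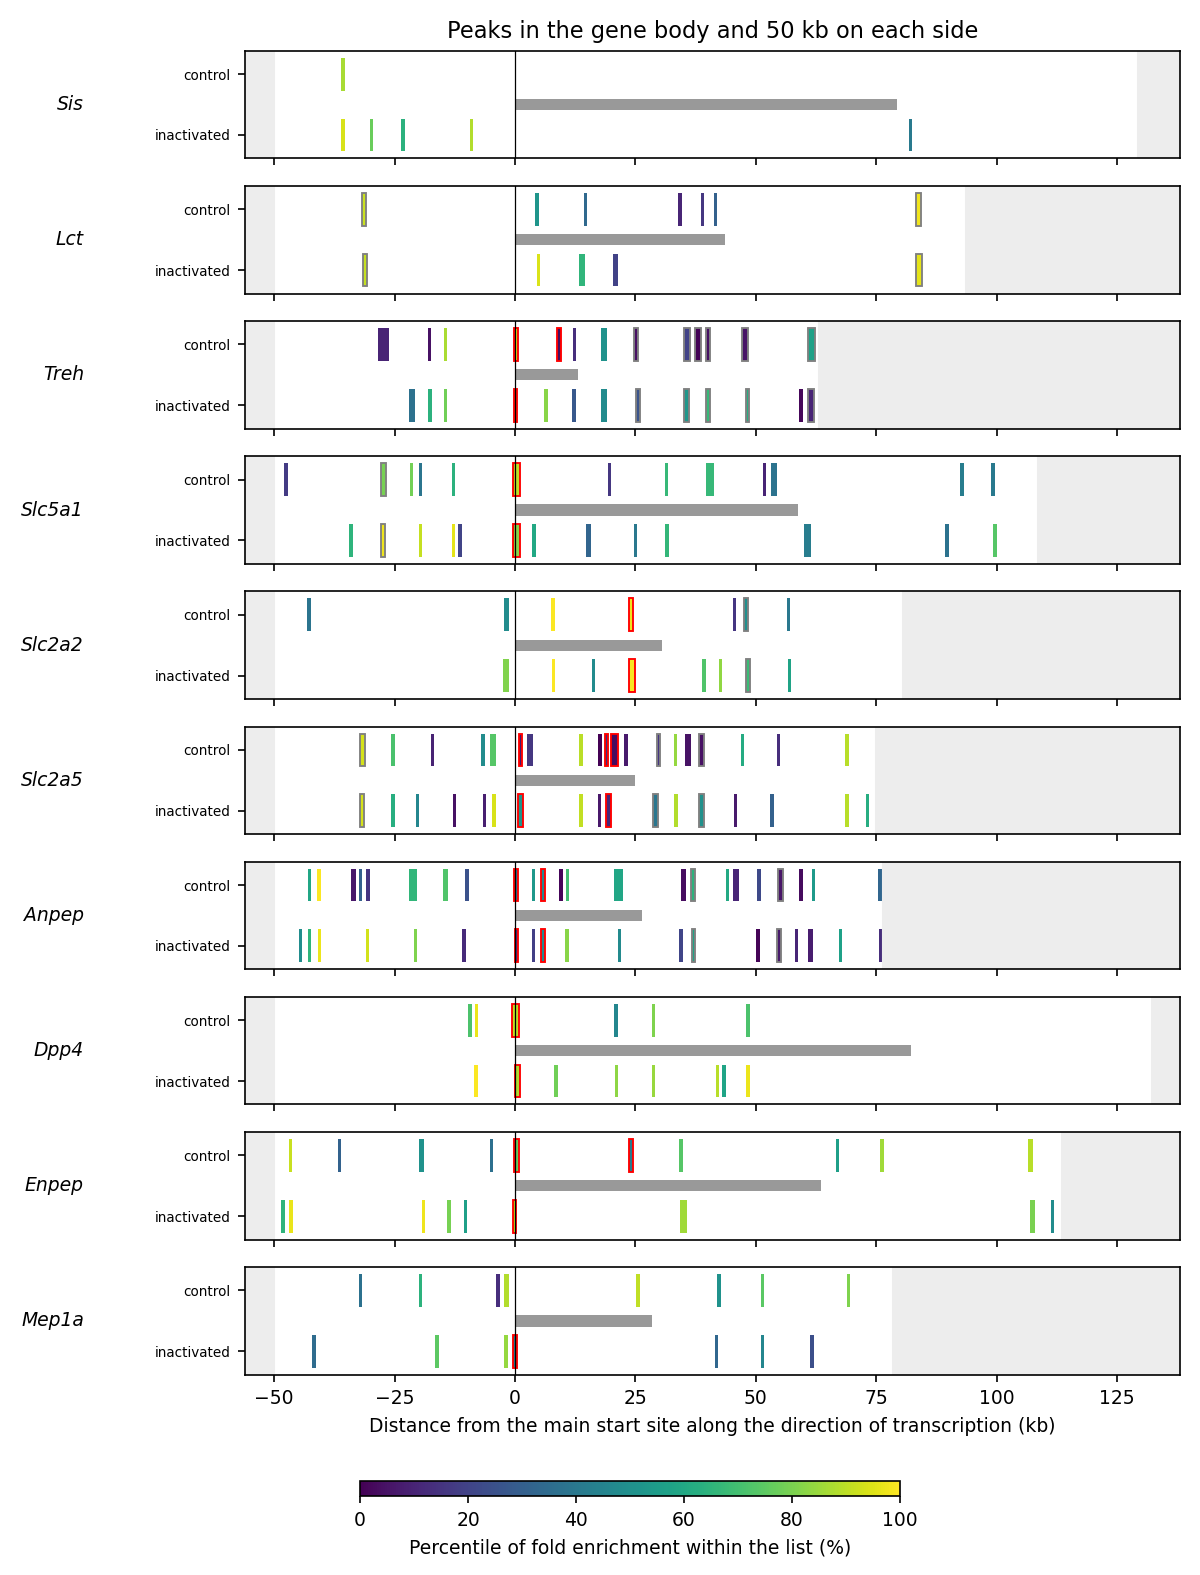
Peaks of each list along the 10 gene windows, with distance from the main start site in kb, measured along the direction of transcription, on the horizontal axis and colour giving the percentile of fold within the list. Grey bars are gene bodies, red outlines mark start site peaks of the gene itself, grey outlines mark peaks at start sites of other genes, and peaks are drawn with a minimum width so that narrow ones can be seen. Sis holds 1 distal peak in control and 5 after inactivation, and Slc2a2 holds bright peaks inside the gene in both lists.

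Anpep encodes aminopeptidase N, also known as CD13, which removes single residues from the amino end of peptides. The gene (ENSMUSG00000039062.8, chr7:86966689-86993096, minus strand) had low peaks near its main start, at percentile 36.8 in control (chr7:86992716-86993052) and 12.3 after inactivation (chr7:86992631-86992830). A second coding start, in exon 2, had a peak at percentile 46.2 in control and 46.9 after inactivation, and these gave its rank difference of 0.729 points. The window was crowded, with 19 distal peaks in control and 15 after inactivation, at percentiles 99.9 and 99.8 of coding genes by density. The highest of them lay at -40.6 kb, inside the neighbouring gene Ap3s2, at percentile 99.4 (fold 3.69) in control and 96.9 (fold 4.45) after inactivation. Anpep held both the largest gain and the largest loss of rank among the shared distal peaks. The gain lay at -30.5 kb (chr7:87023467-87023755 in control), also inside Ap3s2, from percentile 15.2 (fold 1.86) to 93.0 (fold 3.94). The loss lay at 62.0 kb, beyond the end of the gene (chr7:86930723-86931511 in control), from percentile 54.2 to 8.19. A peak in intron 1 at 3.85 kb went from percentile 53.2 to 18.6.

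Dpp4 encodes dipeptidyl peptidase 4, which cuts dipeptides off chains with proline or alanine in second place. The gene (ENSMUSG00000035000.8, chr2:62168130-62250288, minus strand) had a peak at its main start at percentile 89.99 in control (chr2:62249472-62250824, fold 2.57) and 87.5 after inactivation (chr2:62249319-62250282, fold 3.52), a rank difference of -2.47 points. Its distal peak at -8.04 kb was strong in both lists, with a fold of 3.07 at percentile 96.7 in control and 5.29 at percentile 99.4 after inactivation, and its central window held an AP-1 match. Inside the gene, an intron 11 peak went from percentile 71.5 to 97.2 and an intron 2 peak from 45.8 to 83.1. The intron 10 peak at chr2:62208097-62208439 was called after inactivation only, at percentile 89.4, the highest without a partner at the 10 genes in that list. It was singled out after its value was seen. All 4 distal peaks of Dpp4 in both lists ranked higher after inactivation.

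Enpep encodes aminopeptidase A, which removes acidic residues from the amino end. The gene (ENSMUSG00000028024.7, chr3:128972093-129035638, minus strand) had its start site peak at percentile 76.3 in control (chr3:129034878-129035837, fold 2.24) and 91.2 after inactivation (chr3:129035445-129035891, fold 3.78). The rank difference was 14.9 points, the largest among the genes whose compared peaks overlapped. The peak was narrower after inactivation, 447 bp against 960 bp. A further control peak at another start, in the gene body, stood at percentile 41.5 and had no partner. The distal peak at -19.4 kb went from percentile 50.5 to 97.6, and that at -46.6 kb from 91.5 to 96.6. Each list held 8 distal peaks of Enpep, and 4 in each had no partner.

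Mep1a encodes the alpha subunit of meprin A, a metallopeptidase of the brush border. The gene (ENSMUSG00000023914.10, chr17:43611273-43639761, minus strand) had a start site peak after inactivation only, at chr17:43639620-43639832. It was 213 bp wide, with a fold of 2.37, a −log10 p of 4.75 and percentile 43.3, and it covered the main start. A nearby upstream peak was present in both lists. Its edge lay 1213 bp from the main start in control (percentile 88.6) and 1474 bp after inactivation (percentile 84.3), just outside the 1 kb that defined a start site peak. Of the strong distal peaks of the 10 genes in either list, the only one without a partner was at Mep1a. It lay over coding exon 13 in control (chr17:43613987-43614336) with a fold of 2.60 at percentile 90.6, close to the threshold of 90. Mep1a had no strong distal peak after inactivation, and its 3 shared distal peaks all ranked lower there.

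**Figure D3:**
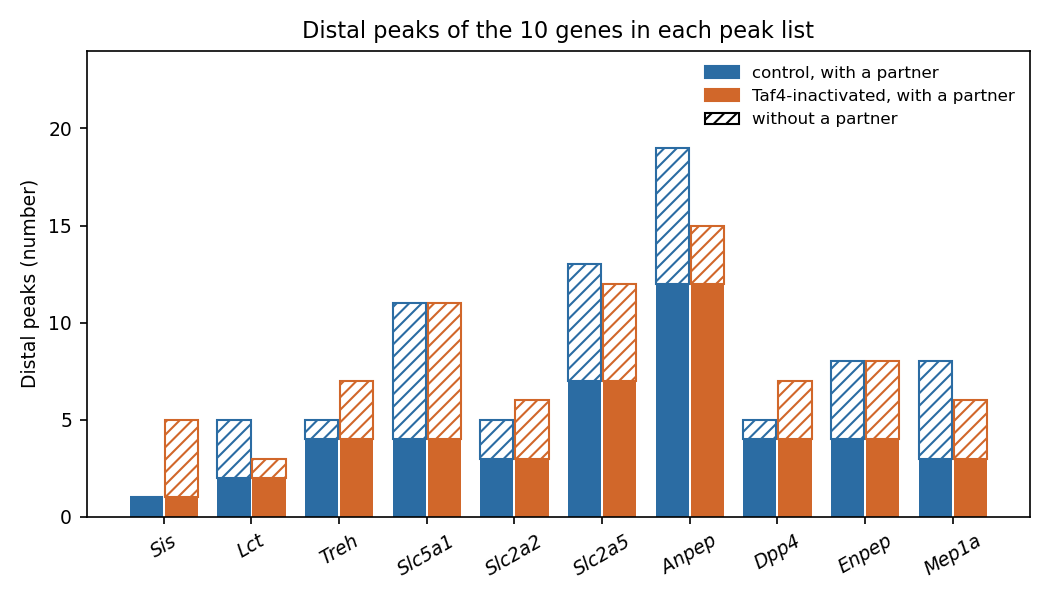
Number of distal peaks of each of the 10 genes in the control (blue) and Taf4-inactivated (orange) lists, with filled bars for peaks that overlapped a peak of the other list and hatched bars for those that did not. The lists hold 80 distal peaks each, from 1 at Sis to 19 at Anpep in control and from 3 at Lct to 15 at Anpep after inactivation.

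In total the 10 genes had 80 distal peaks in each list, of which 44 in each overlapped a peak of the other list by at least 1 bp. The 36 without a partner were 45% in each (CI 33.8 to 56.5). In the windows of all coding genes, 60.2% of control and 47.8% of inactivated distal peaks had no partner. At these genes the interval of the control share lay below that background, and the interval after inactivation included it. The intervals treat peaks as independent, which neighbouring peaks of a gene are not, so they do not test the shares against the background. Anpep alone held 19 of the control peaks, 7 of them without a partner. With overlap of 50% of both peaks required, the share was 62.5% in each list, and the background share was not computed. The unpartnered control peaks were weak, with a median percentile of 30.7, against 48.4 for those of the inactivated list. Of the 36 in control, 26 (72.2%) would fall below the lowest −log10 p of the inactivated list, 2.87, if their reads were scaled to its depth. The same held for 17 of the 44 control peaks that did have a partner. The part of depth in the unpartnered peaks beyond these counts was not tested.

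The density of distal peaks at the 10 genes had a median of 4.66 per 100 kb in control and 4.78 after inactivation, against 3.84 and 2.91 over all coding genes. By role, the disaccharidase genes held 11 distal peaks in control and 15 after inactivation, the transporter genes 29 and 29, and the peptidase genes 40 and 36. Upstream peaks numbered 32 in each list, downstream ones 23 and 25, and intronic ones of the 10 genes 22 and 23. The equal totals held at the lists' own threshold only. With −log10 q raised to 2 or more, control kept 38 distal peaks and the inactivated list 62, and with 5 or more they kept 5 and 30. In the windows of all coding genes, 4.89% of control and 20.0% of inactivated distal peaks reached 5, so a tilt in this direction was not particular to these genes. The share over all coding genes at 2 was not computed. The covered length was 52.6 kb in control and 44.8 kb after inactivation.

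Strong distal peaks numbered 5 in control (6.25%, CI 2.06 to 14.0) and 13 after inactivation (16.25%, CI 8.95 to 26.2). In the windows of all coding genes 4.29% and 5.17% of distal peaks were strong. The control interval included its background and the interval after inactivation lay above its own. All 13 had a control partner, and they came from 8 genes: 1 each at Sis, Lct and Slc2a2 and 2 each at Slc5a1, Slc2a5, Anpep, Dpp4 and Enpep. The 5 in control lay at Slc2a2, Anpep, Dpp4, Enpep and Mep1a, 1 each. Neighbouring peaks of a gene are not independent of each other, which the intervals do not cover. With the authors' q values and a cut set here, −log10 q of at least 5, 5 control and 30 inactivated distal peaks qualified. After inactivation the share was 37.5% (CI 26.9 to 49.0). The windows of all coding genes held 4.89% in control and 20.0% after inactivation.

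The 44 shared distal peaks were compared by rank. After inactivation 27 of them ranked higher and 17 lower, with a median difference of 4.75 points, from -46.0 at Anpep to 77.8, also at Anpep. Over the 22788 shared distal peaks in windows of coding genes the median was -2.19 points (quartiles -18.3 and 11.3), and 44.6% ranked higher. When ranks were taken among shared pairs alone, 30 were higher and 14 lower with a median of 11.3 points, against a median of 0.704 and 51.8% higher over all. The pairs were spread unevenly over the 10 genes, from 1 at Sis to 12 at Anpep. The 3 that ranked highest in control, at Slc2a2, Anpep and Dpp4, stood above percentile 96 after inactivation as well.

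**Figure D4:**
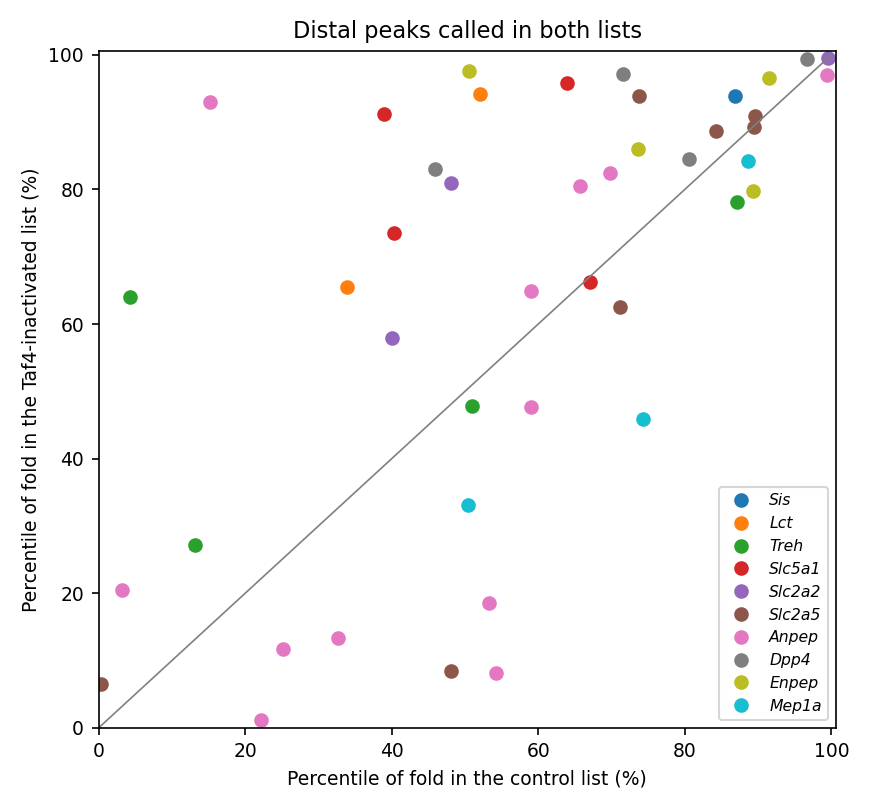
Percentile of fold of the 44 shared distal peaks in the control list (horizontal axis) and in the Taf4-inactivated list (vertical axis), coloured by gene, with the line of equal rank. Of the points, 27 lie above the line, and the Anpep point at 15.2 and 93.0 is farthest from it.

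Genes of related function were read from lists that had been set for comparison. Among 10 further brush border hydrolases, 5 had a start site peak in control and 7 after inactivation. Mgam, which encodes maltase-glucoamylase, and Mep1b, the beta subunit of meprin, were called after inactivation only, at percentiles 70.5 and 68.8. Of the 5 in both lists 4 ranked higher, with a median difference of 10.49 points. Among 10 further genes of sugar transport and metabolism, 8 had a peak in control and 10 after inactivation, and Slc5a4b and G6pc made the difference, at percentiles 83.1 and 59.5. Of the 8 in both lists 7 ranked higher after inactivation, with a median difference of 12.2 points, against -2.77 over coding genes. All 10 genes of brush border structure had a peak in both lists, and 4 of them ranked higher, with a median of -1.58 points. Of 10 genes of lipid absorption 8 had a peak in control and 9 after inactivation, with Apoa1 in control only and Fabp1 and Fabp2 after inactivation only. Of the 7 in both lists 4 ranked higher, with a median of 3.27 points. No list was tested against another.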

How the data were processed

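The peaks of 1 ATAC-seq library from control and 1 from Taf4-inactivated enteroids were used, with genotypes as the sample labels give them. By the submitters' processing notes, bcl2fastq 2.17.1.14, Bowtie 1.0.0 and MACS2 2.1.1 were used. The authors mapped to mm9, kept reads with a single match and called broad peaks in each library on its own, so that the lists depend on depth. Treatment of duplicate and mitochondrial reads is not given in the sources used here. The deposited score of a peak was not used for any result. The deposited fold is a ratio of signal over background within a library. It was used for ranks and, with −log10 p, for solving depth, and the folds given for single peaks are descriptive only. The deposited −log10 p and −log10 q are the authors' averages over a peak, used for filters and for solving depth (from the narrowest 10% of peaks, at percentile 5 of the background).

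Positions were made 1-based. NCBIM37 and the GENCODE annotation of that build supplied genes and sequences, and sequence tables of another build were not used. A partner overlapped by at least 1 bp, a peak in the highest 10% of its list by fold was called strong, and ranks were compared for the highest start site peak of a gene or for distal peaks that overlapped each other best. Motifs were searched as exact letters on both strands. The named peaks were the start site peaks, the highest distal peak of each gene and list, strong distal peaks without a partner, and the 3 shared peaks that gained most in rank and the 3 that lost most, and others were singled out after their values were seen. The 10 genes, the lists and the tests were chosen with earlier results of these data known. Alternatives changed the start site distance, flank, overlap, q, ranking and size of the top list, and ranking among pairs alone was chosen once the data had been seen. The partner search, the 1 kb start site class and the depth ratio were tested on simulated peaks. The simulated fold and −log10 p came from the formulas used to solve depth, so recovery of depth from averages over deposited peaks was not tested. Ranks, windows and motifs were not tested on simulated data. Python 3.11.15, numpy 2.4.6, pandas 2.3.3, scipy 1.17.1, pysam 0.24.0 and matplotlib 3.10.9 were used.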

Additional observations from a re-analysis of the deposited data

How the results depend on the processing

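Of 109 values recomputed under the alternatives, 57 stayed within tolerance (counts within 1.5 times the value reported, shares within its interval, rank differences within 1 point), 43 moved further and 9 changed sign. The cause of each change was not tested. With start sites taken within 2 kb, the median start site rank difference was -2.45 and that of Anpep -6.34. Ranked by −log10 p, Treh changed to 0.536 and Anpep to -8.91. Ranked by width, the median was -9.42, Slc5a1 2.16, Anpep -11.7 and Enpep -32.1. Ranked among pairs alone, a choice made after the data were seen, the median was 3.81 for start sites, 1.33 for Dpp4 and 11.3 for shared distal peaks.

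At a −log10 q of at least 2, 38 control and 62 inactivated distal peaks remained, and 34.2% and 59.7% had no partner. At 5, start site peaks remained at 3 genes in control, 5 after inactivation and 3 in both. The shares of all coding genes with such a start site peak were not computed. Distal peaks then numbered 5 and 30, where 4.89% and 20.0% of distal peaks in windows of all coding genes reached 5. Of these 5 and 30, 0% and 83.3% had no partner, or 0% and 20.0% when looked for among all peaks. With a flank of 10 kb the distal peaks numbered 38 and 35. Overlap of 50% of both peaks left 62.5% without a partner in each list, 2 strong unpartnered inactivated peaks and a median of 3.37 points. The top 5% held 3 and 7 strong distal peaks, 0 unpartnered in control. The top 25% held 16 and 31, with 4 and 7 unpartnered. Taking the top 10% by −log10 p left 0 unpartnered in control. Apart from the distal shares reaching 5, no shares over all coding genes were computed at the settings of this paragraph.

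No paired analysis was possible because each genotype had only 1 library. Depth limits the weaker peaks, and peak absence from a list is not absence of accessibility.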
